A study of Drosophila melanogaster with 837 samples.

Results

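7 genes of the Notch pathway were followed across single cells sorted as embryonic muscle of Drosophila melanogaster. They were the receptor N, its ligand Dl, the nuclear factor Su(H) and 4 target genes of the Enhancer of split complex, E(spl)m3-HLH, E(spl)mbeta-HLH, E(spl)m7-HLH and E(spl)mgamma-HLH. The 7 members were taken by name from a count table of 8862 genes, and E(spl)m7-HLH, which had no row there, from the sum of its transcript in the file of each cell. They were chosen with earlier values of these cells in view, in which cells with reads of esg stood high, so every value below that sets esg-positive against esg-negative cells is a description of that choice and carries no test. The cells came from embryos of 19 to 20 h of the stock Mhc-TAU-GFP, in which GFP follows Myosin heavy chain (Mhc), and were pooled before sorting. The gate kept events with GFP and the DNA dye DRAQ5 and without DAPI, a stain of leaky cells. One cell was placed in each well, and full-length cDNA was made by Smart-seq2 with added primers for Hox genes. All cells form 1 group by their labels, with no animal named, so no comparison of groups of samples exists and no p-value is given. Cells were kept when at least 500 genes had 10 or more reads, which left 96.7% of the cells and removed 28.

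In Notch signalling, a ligand such as Delta on one cell binds the Notch receptor on its neighbour, the receptor is cut, and its intracellular part enters the nucleus. There it joins Suppressor of Hairless, the DNA-binding factor encoded by Su(H), and turns on the E(spl) genes, whose products are short-lived basic helix-loop-helix repressors of the Hairy family. In the embryo this pathway restrains neural fate and sets muscle progenitor number, and in the gut of the fly it sorts precursor cells that carry esg, a Snail-family repressor, from their differentiating neighbours.

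The cells kept lay on 15 plates with 40 to 66 cells each, and the plate is a technical unit, not a replicate. Total reads per cell ran from 98988 to 6870936 among the cells kept. Since depth differed between classes, each cell was also thinned by a random draw of its reads down to 256773, the depth that 10% of the cells do not reach. This kept 90% of the cells and dropped 81 shallower ones, and shares below are thinned unless called unthinned. Shares within a plate, and the sign or direction of a difference by plate, are unthinned throughout. A gene was called detected in a cell at 10 or more reads. Intervals are exact 95% Clopper-Pearson intervals for a share and 95% Newcombe intervals for a difference. Both take cells as independent draws and cover counting error only, so spread between animals is not in them. Reads without molecular identifiers are not independent molecules.

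Cells were split by 10 reads of 4 markers, which are esg, Mhc for contractile muscle, Ppn (Papilin) for hemocytes and apolpp (apolipophorin) for fat body. The label of the sort, muscle, held for few of the cells by these genes: Mhc reached 10 reads in 13.5% of the cells, esg in 11.6% (94 cells), Ppn in 28.2% and apolpp in 41.8%. In Mhc-positive cells all 12 contractile genes on a marker list were detected in at least 25% of thinned cells, against 1 of 12 (Tm1) in esg-positive cells. Exactly 1 of the 4 markers was detected in 79 cells for esg, 49 for Mhc, 24.1% of the cells for Ppn and 36.6% for apolpp. More than 1 was detected in 73 cells and none in 14.5% of the cells. Plate 17 stood apart, with 32 Mhc-positive cells against 1 to 9 on each other plate, and the lowest median depth, 348433 reads. Median depth was 534586 reads in esg-positive cells and 796071 in esg-negative cells. Among the genes of a gut precursor list, GATAe, a midgut factor, was detected in 49.4% of esg-positive cells and fkh, a gut forkhead factor, in 79.2%. Of 6 genes on a midgut marker list, only GATAe reached 25% of esg-positive cells. The trypsin gene betaTry was at 0 in all cells. The trypsin gene alphaTry was at 0 in esg-positive and apolpp-positive cells, 0.476% in Ppn-positive and 1.08% in Mhc-positive cells. Syt1 of a neuron list was in 64.9% of esg-positive and 35.3% of esg-negative cells, and moody of a glia list in 27.3% and 8.14%.

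The 4 E(spl) members lie in 1 cluster on chromosome arm 3R (annotation of build BDGP6.54). Their order is E(spl)mgamma-HLH (25999851 to 26000761, plus strand), E(spl)mbeta-HLH (26005046 to 26006023, minus strand), E(spl)m3-HLH (26021823 to 26023127, plus strand) and E(spl)m7-HLH (26037038 to 26038019, plus strand). Each has 1 transcript of 1 exon, between 911 and 1305 bases long. The gap is 4285 bases between E(spl)mgamma-HLH and E(spl)mbeta-HLH, and 15800 bases between E(spl)mbeta-HLH and E(spl)m3-HLH. N lies at X: 3134870 to 3172221 on the plus strand, with 2 transcripts of 9 exons, the longer of them 10150 bases. Dl lies at 3R: 19302731 to 19326217 on the minus strand, with 3 transcripts of 6 exons. Su(H) lies at 2L: 15039488 to 15043334 on the plus strand, with 2 transcripts of 4 exons. No member overlaps another annotated gene. Reads that the pseudo-aligner shared between genes leave sums that are not whole (beyond 0.01 of a read). Such sums made up 11.8% of the cells with reads of E(spl)mgamma-HLH, 1.77% for E(spl)mbeta-HLH, 0.446% for N and 0% for the other members, so a small part of the E(spl)mgamma-HLH signal could be shared with a related transcript.

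Over all cells, unthinned, E(spl)mbeta-HLH was the member found most often, in 25.2% of the cells (22.3 to 28.4). N followed with 20.3% and E(spl)m3-HLH with 12.6%. E(spl)mgamma-HLH was detected in 30 cells, Su(H) in 28, Dl in 27 and E(spl)m7-HLH in 6. At least 1 of the 4 E(spl) members was detected in 220 cells, and no cell had all 4. After thinning, all 7 members passed the minimum of 5 cells used for every gene, with E(spl)m7-HLH at 6 and Su(H) at 11 cells. The number of cells close to the limit of 10 reads differed between members. E(spl)mbeta-HLH had 17 cells with 1 to 9 reads and 8 with 10 to 19, E(spl)m3-HLH had 10 and 9, E(spl)mgamma-HLH had 4 and 0, and N had 53 and 18. For the rarer members these cells were many beside those detected, with 14 and 4 for Dl, 15 and 5 for Su(H), and 3 and 0 for E(spl)m7-HLH. For the markers these counts were 18 and 6 for esg, 41 and 4 for Ppn, 84 and 7 for apolpp, and 97 and 22 for Mhc, so Mhc had the most such cells among the markers.

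By the share of cells, 5 of the 7 members (N, Dl, E(spl)m3-HLH, E(spl)mbeta-HLH and E(spl)mgamma-HLH) were at least 2-fold higher in esg-positive than in esg-negative cells, and none was 2-fold lower. Of 7800 genes compared in the same way, 16.9% were at least 2-fold higher and 19.5% at least 2-fold lower, with a median fold of 1.03. Since this contrast chose the members, nothing is read from their count, and E(spl)mgamma-HLH reached the minimum of 5 cells only through the esg-positive class.

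**Figure D1:**
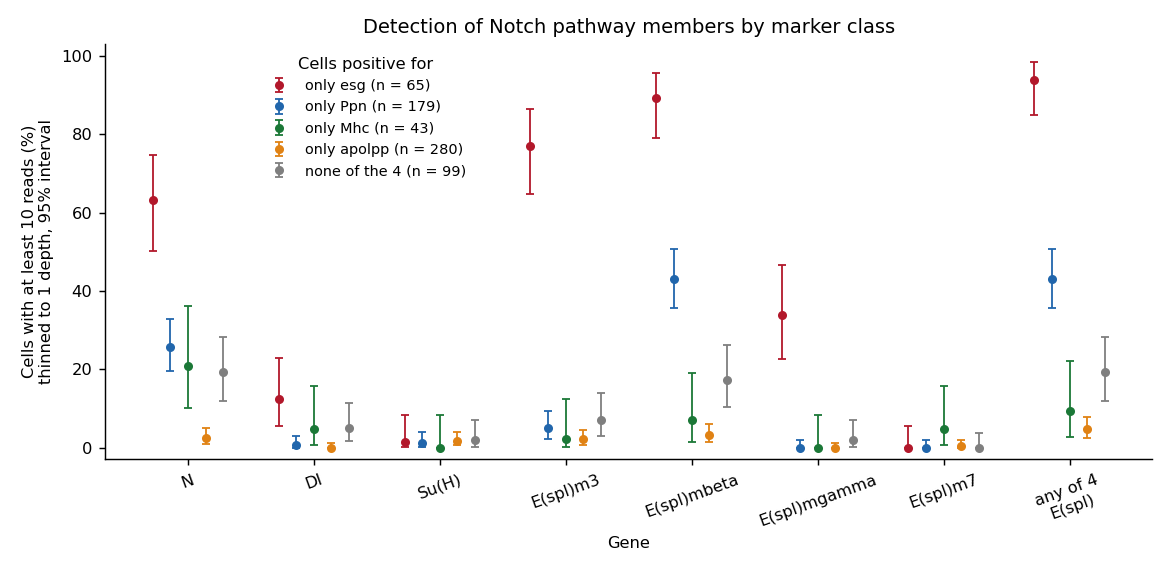
Share of cells with at least 10 reads of each member (y axis, percent, thinned to 1 depth) in cells with exactly 1 of the 4 markers or none; points are shares and bars exact 95% intervals for counting error. Cells with esg alone sit at 89.2% for E(spl)mbeta-HLH and 76.9% for E(spl)m3-HLH, and cells with Ppn alone at 43.02% and 5.03%.

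The ligand Dl was detected in 10.4% of esg-positive cells (8 of 77, 4.59 to 19.4) and 1.38% of esg-negative cells (9 cells, 0.634 to 2.61), a difference of 9.01 percentage points (3.83 to 17.8). Unthinned, the counts were 11 of 94 esg-positive and 16 esg-negative cells. All 11 of these esg-positive cells had esg as their only marker. The level of Dl in them, in counts scaled to the reads of the cell (CPM), ran from 15.7 to 720.9 with a median of 170.2. By plate the share was higher in esg-positive cells on 7 of 15 plates, lower on 5 and equal on 3, so the plates did not all show the direction. Outside the esg-positive cells, 9 Dl-positive cells had none of the 4 markers, 2 had Mhc alone, 2 had Ppn alone, 1 had apolpp alone and 2 had more than 1 marker. No Dl was detected in thinned apolpp-positive cells, which allows a share of up to 0.952% (3 cells) or, by the exact interval, 1.16%, and unthinned it was in 2 of them.

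The receptor N was detected in 58.4% of esg-positive cells (45 of 77, 46.6 to 69.6) and 13.1% of esg-negative cells (85 cells, 10.6 to 15.9). The difference was 45.4 percentage points (33.89 to 56.0025) and had the same sign on all 15 plates. Unthinned, N was detected in 60 of 94 esg-positive cells, with 13 to 1082 reads and a median of 121.5 in them. The mean level over all cells was 190.3 CPM in esg-positive and 27.9 CPM in esg-negative cells, a ratio of 6.81. N was also found in other classes, at 25.7% of cells with Ppn alone, 20.9% with Mhc alone and 19.2% with none of the 4 markers. Cells with apolpp alone were lower, at 2.50% (7 of 280, 1.01 to 5.08). Their median depth before thinning was 936633 reads. Detection was lower for many genes in apolpp-positive cells, with a median fold of 0.656 over 8438 genes. The part of this in the lower share of N was not tested. The intervals of the Ppn, Mhc and marker-free classes overlapped, so their order is not resolved. One transcript of N (FBtr0304659, 9611 bases) took 79.2% of its reads.

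Su(H), which encodes the factor that binds DNA for the pathway, was rare in every class. It was detected in 1.30% of esg-positive cells (1 of 77, 0.0329 to 7.02) and 1.54% of esg-negative cells (10 cells, 0.739 to 2.81), and the difference of -0.237 percentage points had an interval of -1.90 to 5.50. Unthinned it was found in 28 cells at 7.78 to 195.8 CPM with a median of 39.5 CPM. Of these 28 cells, 12 had apolpp alone, 7 had Ppn alone, 6 had none of the markers, 2 had more than 1 and 1 had esg alone. An E(spl) member was also detected in 6 of the 28 cells (21.4%), against 27.2% of all cells, and the single esg-positive one held E(spl)m3-HLH, E(spl)mbeta-HLH, E(spl)mgamma-HLH, N and Dl. At this depth no difference of Su(H) between the classes was detectable.

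Among the target genes, E(spl)mbeta-HLH was detected in 81.8% of esg-positive cells (63 of 77, 71.4 to 89.7) and 17.2% of esg-negative cells (14.4 to 20.3), a difference of 64.6 percentage points (54.1 to 72.2). E(spl)m3-HLH was detected in 71.4% (55 of 77, 59.9965 to 81.2) and 4.15% (27 cells, 2.75 to 5.98), a difference of 67.3 percentage points (56.2 to 76.3). E(spl)mgamma-HLH was detected in 31.2% (24 of 77, 21.1 to 42.7) and 0.461% (3 cells, 0.0951 to 1.34), a difference of 30.7 percentage points (21.4 to 41.7). E(spl)mbeta-HLH was common and shared with other classes, and E(spl)mgamma-HLH was found in fewer cells, most of them with esg. The esg contrast chose the members, and E(spl)mgamma-HLH reached the minimum of cells only through the esg-positive class. Nothing is therefore read from the rarity of E(spl)mgamma-HLH in esg-negative cells. Unthinned, 26 of the 30 cells with E(spl)mgamma-HLH were esg-positive, compared with 63 cells of E(spl)m3-HLH against 39 without esg, and 74 of E(spl)mbeta-HLH against 130 without esg. At least 1 E(spl) member was detected in 87.01% of esg-positive cells (67 of 77, 77.4 to 93.6) and 18.9% of esg-negative cells (15.96 to 22.1). Unthinned these shares were 81.9% (77 of 94) and 20%. In cells whose only marker was esg the thinned share was 93.8% (61 of 65, 84.99 to 98.3).

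Levels are given for the 3 targets other than E(spl)m7-HLH in the cells where they were detected. In esg-positive cells that held them, E(spl)mbeta-HLH had 29.8 to 7482 CPM with a median of 646.5, E(spl)m3-HLH had 34.1 to 4988 CPM with a median of 682.4, and E(spl)mgamma-HLH had 70.2 to 2649 CPM with a median of 604.8. Per length, in the deposited TPM (transcripts scaled to a fixed total per cell), the medians over these cells were 1060.5 for E(spl)mbeta-HLH, 1017 for E(spl)mgamma-HLH and 636.9 for E(spl)m3-HLH, against 50.6 for Dl and 22.97 for N. On the TPM scale the interquartile ranges overlapped between E(spl)mbeta-HLH (496.9 to 1724.6) and E(spl)m3-HLH (344.8 to 1656.8), while that of N (12.5 to 38.4) lay below both. The limit of 10 reads admits N, with transcripts of 9611 to 10150 bases, at a lower TPM than the E(spl) members (911 to 1305 bases). The part of this limit in the lower values of N was not tested. E(spl)mbeta-HLH also differed in level between classes, with a median CPM among cells that held it of 646.5 in esg-positive, 177.2 in Ppn-positive and 65.7 in apolpp-positive cells. On the TPM scale the interquartile ranges of E(spl)mbeta-HLH in esg-positive and Ppn-positive cells, 496.9 to 1724.6 and 171.1 to 513.9, overlapped at their edges.

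**Figure D2:**
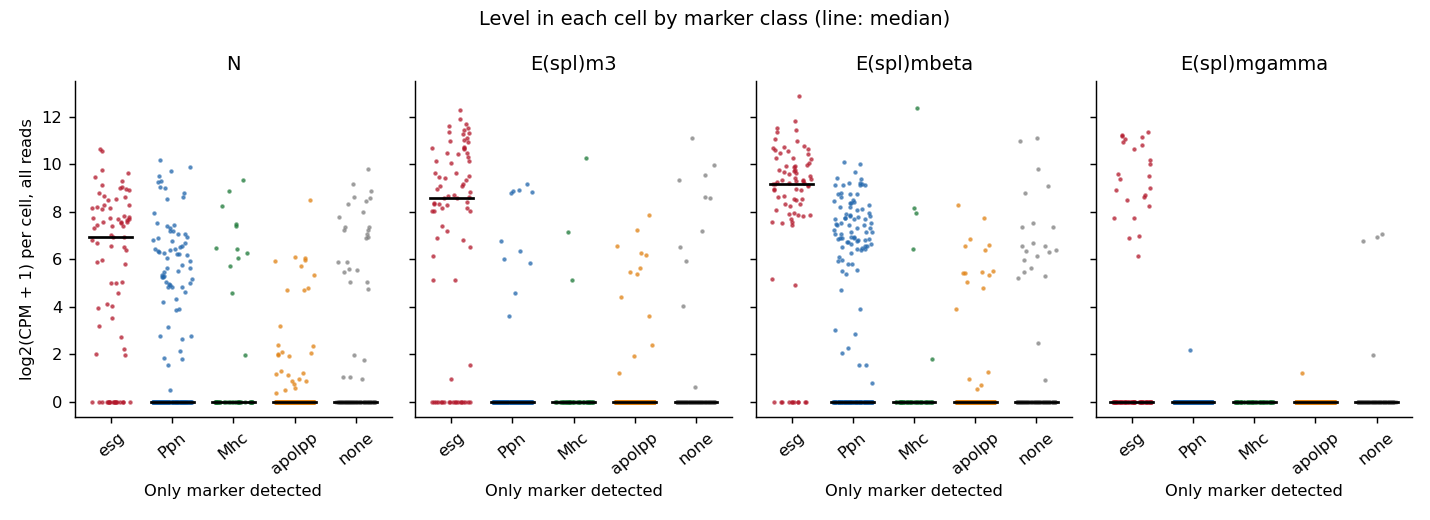
Level of N and 3 E(spl) members in each cell, as log2(CPM + 1) on unthinned reads (y axis), by the only marker detected in the cell; each point is a cell and the black line is the class median. E(spl)mgamma-HLH rises from the zero line almost only in the esg class (24 of 79 cells). The esg contrast chose the members and brought E(spl)mgamma-HLH to the minimum of cells, so nothing is read from this. E(spl)mbeta-HLH fills the esg class (68 of 79) and part of the Ppn class (85 cells, 43.6%) at a lower level.

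Within the 94 esg-positive cells the targets were often found together but were not strictly nested. E(spl)m3-HLH and E(spl)mbeta-HLH were both detected in 61 cells, where the shares alone would give 49.6. Only 2 of 63 cells with E(spl)m3-HLH lacked E(spl)mbeta-HLH. All 26 cells with E(spl)mgamma-HLH held E(spl)mbeta-HLH, where the shares alone would give 20.5. Of these 26 cells, 22 also held E(spl)m3-HLH, where the shares alone would give 17.4. Grouped by combination, 39 cells held E(spl)m3-HLH with E(spl)mbeta-HLH, 22 held these with E(spl)mgamma-HLH, 9 held E(spl)mbeta-HLH alone, 4 held it with E(spl)mgamma-HLH, 2 held E(spl)m3-HLH alone and 1 held E(spl)m7-HLH alone. The remaining 17 held none. The expected counts take in these 17 cells, which differed from the other 77 in depth and other genes, as described below. Their part in the excess over the expected counts, and in the correlation that follows, was not tested. The CPM of E(spl)m3-HLH and E(spl)mbeta-HLH had a Spearman correlation of 0.542 over these 94 cells, which share the split and the plates. The correlations of depth with the CPM of E(spl)m3-HLH and E(spl)mbeta-HLH were 0.0310 and -0.0353.

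Of the 11 esg-positive cells with Dl, 10 also held N, E(spl)m3-HLH and E(spl)mbeta-HLH, and the 1 other cell held no member besides Dl. Over all 94 esg-positive cells, N was in 60, E(spl)m3-HLH in 63 and E(spl)mbeta-HLH in 74. Shares of this size alone would give 7.02, 7.37 and 8.66 of the 11 cells. These shares also take in the 17 cells without a detected E(spl) member, whose part was not tested. An E(spl) member was detected in 51 of the 60 cells with N, where the shares alone would give 49.1, and in 26 of the 34 cells without detected N. Targets were therefore also found where N did not reach 10 reads.

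**Figure D3:**
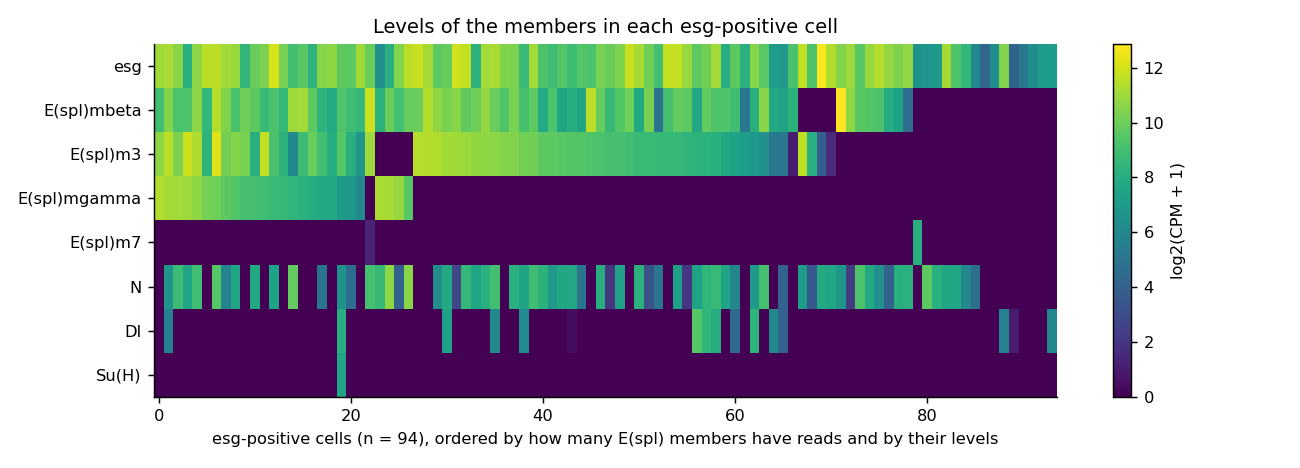
Level of esg and the 7 members, as log2(CPM + 1), in each of the 94 esg-positive cells (columns, ordered by the number of E(spl) members with reads and their levels). E(spl)mbeta-HLH and E(spl)m3-HLH fill most columns, E(spl)mgamma-HLH fills 26, Dl 11 and Su(H) 1 at 10 or more reads. Of the 17 cells without a detected E(spl) member, 11 have fewer than 100 reads of esg, while others have as much esg as cells that hold a member.

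The share of esg-positive cells with an E(spl) member exceeded that of esg-negative cells on every one of the 15 plates. By plate, with 2 to 12 esg-positive cells each, it ran from 50% to 100% with a mean of 80.7% ± 15.4 (SD, n = 15 plates), against 6.67% to 40.5% and 19.96% ± 8.62 in esg-negative cells, unthinned, so the ranges did not overlap. For N the means were 66.5% ± 19.9 and 14.6% ± 4.21. E(spl)m3-HLH ran from 20% to 100% by plate in esg-positive cells and from 0% to 14.3% in esg-negative cells. E(spl)mgamma-HLH was at 0% of esg-positive cells on 5 plates and reached 45.5% on 1 plate. This SD is a technical spread. Since this contrast chose the members from these same cells, the agreement over plates is a description and no further evidence.

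**Figure D4:**
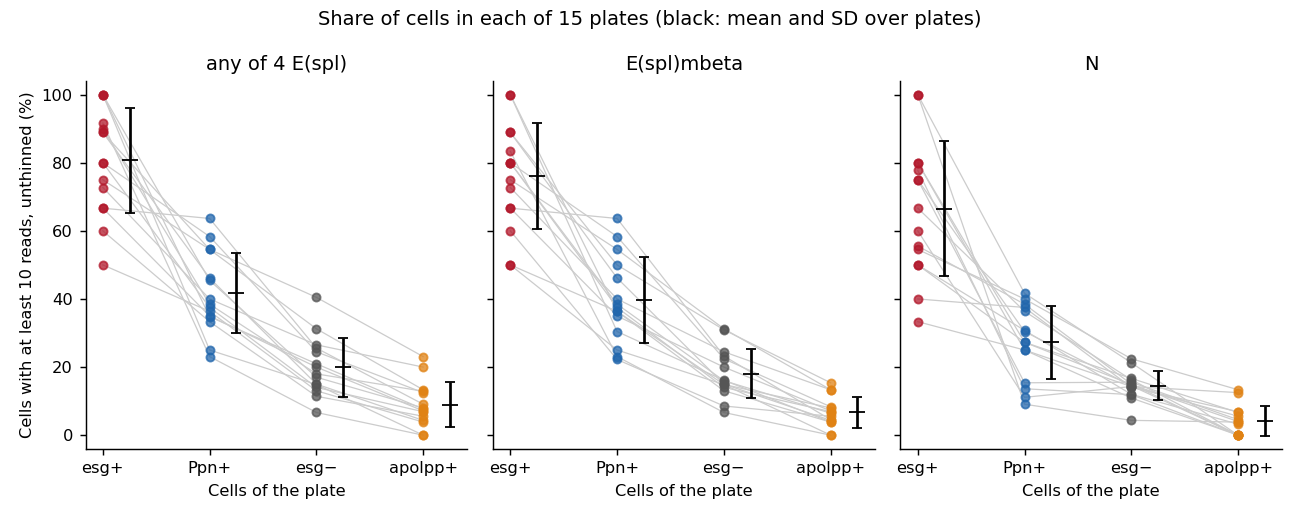
Share of cells (y axis, percent, unthinned) with any E(spl) member, E(spl)mbeta-HLH or N in the esg-positive, Ppn-positive, esg-negative and apolpp-positive cells of each of 15 plates; points are plates, grey lines join a plate and black marks give the mean and SD over plates. For any E(spl) member the esg-positive points lie between 50% and 100% and the apolpp-positive ones between 0% and 23.1%.

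In Ppn-positive cells E(spl)mbeta-HLH was common and the other targets were rarer. Of 9 hemocyte genes, 7 were found in at least 25% of these cells, the split gene Ppn included. The hemocyte genes Pxn (peroxidasin), NimC1, a phagocytic receptor, and He (Hemese) were detected in 86.2%, 51.9% and 39.05% of Ppn-positive cells, against 1.59%, 0.317% and 0% of apolpp-positive cells. In contrast vkg, a type IV collagen, and srp, a GATA factor, were common in both, at 93.8% and 88.1% against 97.8% and 80.6%. E(spl)mbeta-HLH was detected in 40% of Ppn-positive cells (84 of 210, 33.3 to 46.97) and 17.6% of Ppn-negative cells, a difference of 22.4 percentage points (15.1 to 29.8) with the same sign on all 15 plates. E(spl)m3-HLH was instead found in 7.14% of Ppn-positive and 12.9% of Ppn-negative cells, and E(spl)mgamma-HLH in 0.952% and 4.83%. In cells with Ppn alone E(spl)mgamma-HLH was not detected, which allows a share of up to 1.68% (3 cells) or, by the exact interval, 2.04%. Of the 96 Ppn-positive cells with any E(spl) member, unthinned, 77 held E(spl)mbeta-HLH alone, compared with 9 of 77 in the esg-positive class. By the 2-fold limit 1 member was higher (E(spl)mbeta-HLH) and 2 were lower (E(spl)mgamma-HLH and Dl) in Ppn-positive cells, where 10.5% and 22.5% of 8327 genes were higher and lower. Both lower members reached the minimum of 5 cells only through the Ppn-negative class, so nothing is read from their calls. The direction for E(spl)mbeta-HLH depended on the scale. The mean CPM of E(spl)mbeta-HLH was lower in Ppn-positive cells, 108.2 against 143.6. The Ppn-negative class held 90 of the 94 esg-positive cells, and their part in this mean was not tested. With esg-positive cells left out of both classes, an alternative chosen after seeing the data, an E(spl) member was detected in 86 Ppn-positive and 37 Ppn-negative cells, and the difference for any E(spl) member grew from 22.2 to 33.4 percentage points (26.3 to 40.6).

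Within the Ppn-positive cells, unthinned, N was detected in 36 of the 92 cells with E(spl)mbeta-HLH (39.1%) and in 27 of the cells without it (19.9%). Thinned, these shares were 36.4% and 16.4%. The median depth was 901678 and 756204 reads. The cells with E(spl)mbeta-HLH also held Pxn and srp more often, at 96.7% against 83.1% and 96.7% against 80.9%, and Mhc less often, at 2.17% against 16.2%. Over the contractile list the summed level reached 4654 CPM in cells with E(spl)mbeta-HLH and 95130 CPM in those without, and 0 and 1 of 12 genes were in at least 25% of the cells. The part of these other markers in the difference was not tested.

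The share of cells with an E(spl) member was lower in the apolpp-positive class than in the esg-positive and Ppn-positive classes, and its interval overlapped that of the Mhc-positive class. At least 1 E(spl) member was detected in 6.03% of apolpp-positive cells (19 cells, 3.67 to 9.26) and 41.4% of apolpp-negative cells, a difference of -35.4 percentage points (-40.6 to -29.7) with the same sign on all 15 plates. N was detected in 3.17% against 29.1%, E(spl)mbeta-HLH in 4.44% against 38.98% and E(spl)m3-HLH in 2.54% against 17.9%. Neither Dl nor E(spl)mgamma-HLH was detected in the thinned apolpp-positive cells. Su(H) went the other way, at 1.90% against 1.21%, with an interval of the difference from -1.20 to 2.99 percentage points. By the 2-fold limit 5 members were lower and none higher, on a background in which 38.7% of 8438 genes were lower and 12.2% higher, with a median fold of 0.656. Dl and E(spl)mgamma-HLH reached the minimum of 5 cells only through the apolpp-negative class, so nothing is read from their calls. With esg-positive cells left out, the difference for any E(spl) member was -25.6 percentage points (-31.1 to -20.0).

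Mhc-positive cells were the class the sort was meant to collect. In them 3 of 9 hemocyte genes and 3 of 7 fat body genes reached at least 25% of cells. Col4a1, a type IV collagen, was in 52.7%, Adh, an alcohol dehydrogenase of fat body, in 39.8% and apolpp in 29.03%. In Mhc-negative cells these shares were 74.6%, 46.3% and 44.1%. He, Fbp1, Lsp2 and Lsp1beta were at 0 in Mhc-positive cells. In cells with Mhc alone Col4a1 was in 32.6% and Adh in 6.98%. At least 1 E(spl) member was detected in 15.1% of Mhc-positive cells (14 of 93, 8.48 to 23.97) against 27.7% of Mhc-negative cells, a difference of -12.7 percentage points (-19.6 to -3.40). Without plate 17 it was -13.3. In cells with Mhc alone the share was 9.30% (4 of 43, 2.59 to 22.1). With esg-positive cells left out the difference was -7.39 percentage points and its interval, -13.8 to 1.66, included 0. E(spl)mbeta-HLH was detected in 8.60% against 26.3%. By the 2-fold limit E(spl)mbeta-HLH was lower in Mhc-positive cells, on a background of 7.81% of 8145 genes lower and 16.9% higher. E(spl)m7-HLH was detected in 5 of 93 Mhc-positive cells and in 1 Mhc-negative cell. It reached the minimum of 5 cells only through the Mhc-positive class, so a difference was fixed by that minimum and nothing is read from it. Dl was at 3.23% and 2.20%. The 6 cells with E(spl)m7-HLH came from 6 plates and held 1562.8, 1086.5, 761.1, 289.003, 483.009 and 146.1 CPM. The first and second had Mhc as their only marker, the third and sixth had Mhc with Ppn, the fourth had Mhc with esg and apolpp, and the fifth had apolpp alone. E(spl)m3-HLH was detected in 4 of these 6 cells and N in none.

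The 17 esg-positive cells without an E(spl) member differed from the other 77 in more than these genes, in a split chosen after seeing the data. Their median depth was 341690 reads against 540126, and their median level of esg was 134.2 CPM against 1270.3 CPM, with fewer than 100 reads of esg in 11 of the 17 and 4 of the 77. The Snail-family gene sna was detected in 6 of the 17 and 65 of the 77, the Sox factor Sox100B in 1 and 50, and fkh in 9 and 68. The homeobox gene hth went the other way, in 6 of the 17 and 5 of the 77. Genes of other cell types were also found in them: vkg in 5 of 17 and 3 of 77 cells, Mhc in 4 and 3, apolpp in 3 and 3, and the synaptic gene cpx in 4 and 0. Over the hemocyte list the summed level ran from 0 to 87358 CPM (median 24.4) in the 17 cells and from 0 to 1189 CPM (median 31.9) in the 77, over the contractile list from 0 to 32552 (median 142.4) and from 0 to 15851 (median 112.4), and over the fat body list from 0 to 15166 (median 8.98) and from 0 to 607.8 (median 0). Hml, He and NimC1 were at 0 in the 77 cells. The part of depth and of these markers in the missing E(spl) detection was not tested.

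Among cells with gut genes, detection of the targets followed esg. GATAe was detected in 89 cells, unthinned, 47 of them esg-positive. An E(spl) member was detected in 90.2% of thinned cells with both GATAe and esg (37 of 41, 76.9 to 97.3) and in 5.26% of those with GATAe and no esg (2 of 38, 0.644 to 17.7). For fkh the shares were 93.5% with esg (58 of 62) and 7.50% without (3 of 40, 1.57 to 20.4). N was detected in 68.3% and 10.5% of the GATAe cells with and without esg. With Ptx1, a homeobox gene, an E(spl) member was detected in 9 of 10 thinned cells with esg and 1 of 27 without. Sox100B was different, since 5 of 12 thinned cells with Sox100B and no esg held an E(spl) member (41.7%, 15.2 to 72.3). These splits were chosen after seeing the data and use the same cells that chose the members.

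The other genes of the pathway came from lists drawn up with earlier results of these data known. Their counts stand beside the background of this contrast, 16.9% of genes at least 2-fold higher and 19.5% lower. In the ligand list, 3 of 7 genes were at least 2-fold higher in esg-positive cells and 1 lower. Besides Dl, neur, a ubiquitin ligase that activates Delta, was detected in 29.9% against 4.92%, and lqf, an epsin needed for ligand endocytosis, in 46.8% against 22.1%. Ser, the other Notch ligand, was the lower one, at 1.30% against 3.99%. In the receptor and processing list, 10 of 12 genes could be compared, of which N and Tace, a metalloprotease, were higher and Fur2, a furin, was lower (2.60% against 19.7%), counts close to that background. Tace was in 2.60% and 0.614% of cells. The protease kuz, which cuts the receptor, was detected in 41.6% and 36.3%. The gamma-secretase genes Psn, Nct, aph-1 and pen-2 were in 3.90% to 16.9% of esg-positive cells, and none passed the 2-fold limit. Ser and Tace, under 5% of esg-positive cells, and Fur2 are named after their values were seen.

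Of the 7 modulators, numb, an inhibitor of Notch, was detected in 41.6% of esg-positive and 7.07% of esg-negative cells, and spdo, a partner of numb in asymmetric division, in 6.49% and 1.08%. The other 5 did not pass the limit. Among 7 nuclear genes compared, gro, the corepressor that E(spl) proteins recruit, was detected in 45.5% against 12.6%, and none was lower. H, which joins Su(H) to corepressors, was in 16.9% and 9.06%, and mam, the coactivator, in 29.9% and 16.4%. The other 3 E(spl) helix-loop-helix genes (E(spl)mdelta-HLH, E(spl)m5-HLH and E(spl)m8-HLH) were each detected in 1 cell in all and could not be compared. In the Bearded family, whose members inhibit ligand activation, only 2 of 10 listed genes could be compared. E(spl)malpha-BFM was detected in 7.79% against 0.307% (6 and 2 cells), and E(spl)m2-BFM in 1.30% against 0.614% (1 and 4 cells). E(spl)malpha-BFM reached the minimum of 5 cells only through the esg-positive class, so nothing is read from its difference. h, the Hairy repressor, was lower in esg-positive cells, at 27.3% against 62.1%. Of 13 proneural and neural-fate genes only 4 could be compared, and emc, an inhibitor of proneural factors, was lower at 15.6% against 33.5%.

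In the gut precursor list, which was drawn up with the esg-positive cells already known, includes esg itself and is no independent evidence, 10 of 12 genes were higher and 1, hth, lower, with a median fold of 22.9. sna was detected in 74.03% against 0.154%, zfh2, a zinc-finger homeobox gene, in 68.8% against 1.23%, and Sox100B in 53.2% against 1.54%.

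**Figure D5:**
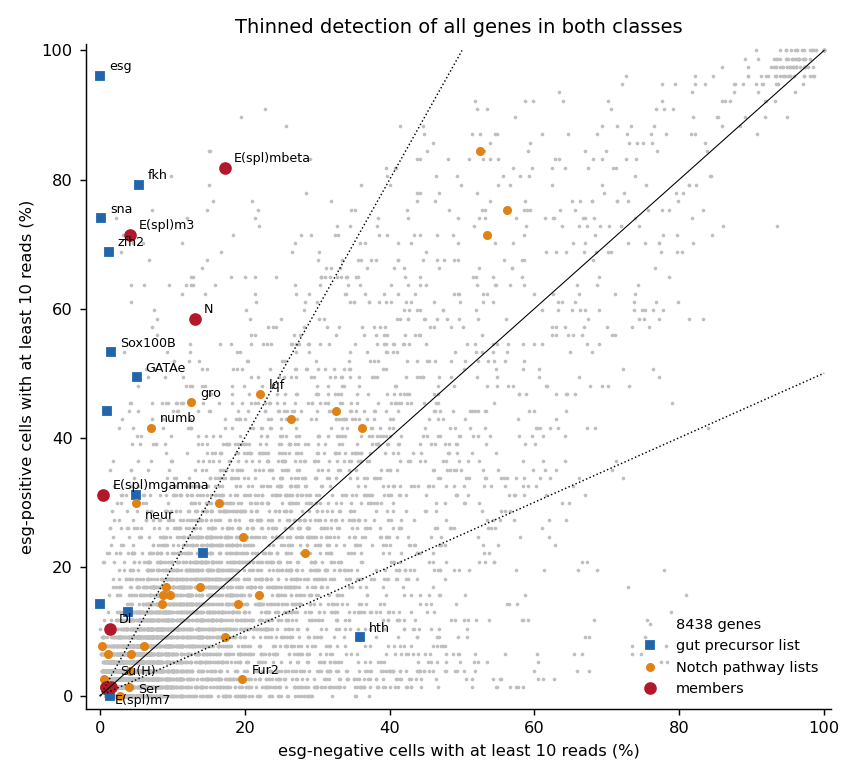
Share of esg-negative (x axis) and esg-positive cells (y axis) with at least 10 reads, thinned, for each of 8438 genes; red points are members, orange points other genes of the Notch lists, blue squares the gut precursor list, the solid line marks equal shares and the dotted lines 2-fold differences. E(spl)mbeta-HLH (81.8% against 17.2%) and E(spl)m3-HLH (71.4% against 4.15%) lie in the sparse upper left with fkh, sna and zfh2, and Su(H) and E(spl)m7-HLH lie near the origin.

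Along the Ppn split, 4 of 11 receptor and processing genes were higher and 1 lower, and of 7 genes each, 1 ligand gene was higher and 1 lower, 2 modulators higher and 1 lower, and no nuclear gene either. Over all genes 10.5% were higher and 22.5% lower. Ser was detected in 10.95% of Ppn-positive and 0.772% of Ppn-negative cells and kuz in 87.1% against 16.4%. The gamma-secretase genes aph-1 and pen-2 were in 32.4% against 9.85% and 8.57% against 2.32%, while Psn (20.5% against 11.6%) and Nct (11.4% against 9.85%) did not pass the 2-fold limit. AP-2alpha, an endocytic adaptor subunit, was in 49.5% against 9.85%, and numb in 2.86% against 13.9%. In apolpp-positive cells, 9 of 11 receptor and processing genes, 6 of 7 ligand genes and 7 of 7 modulators were at least 2-fold lower, and none of these lists had a higher gene. Of 7 nuclear genes, 3 were lower. Over all genes 38.7% were lower and 12.2% higher.

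Genes whose detection across the thinned cells was most like that of a member were ranked by the phi coefficient among 6777 genes found in at least 20 cells. All cells share plates and depth, so the values are a description. For E(spl)m3-HLH they were esg (0.67), sna (0.63) and zfh2 (0.58). For E(spl)mgamma-HLH they were esg (0.51), sna (0.51) and E(spl)m3-HLH (0.46), and for E(spl)mbeta-HLH they were E(spl)m3-HLH (0.52), esg (0.48) and sna (0.48). For N they were E(spl)mbeta-HLH (0.41), E(spl)m3-HLH (0.40) and esg (0.38). Dl, Su(H) and E(spl)m7-HLH were in fewer than 20 thinned cells and were not ranked.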

How the data were processed

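Per the labels and the study's methods, single-end reads of each cell were trimmed and pseudo-aligned to the BDGP6 cDNA. The submitters' processing notes name kallisto 0.43.0 and R 3.5.1. The authors deposited a table of read counts per gene for all cells, and for each cell a file of estimated counts and TPM values per transcript. Estimated counts deposited for E(spl)m7-HLH were rounded to whole numbers, and TPM as deposited were summed per gene. For the 6 members in the table, 100% of values lie within 0.51 of a read of these sums.

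Here CPM were computed on all reads of a cell, of which a median of 35.4% over the cells fell on 11 ribosomal RNA features. Cells needed 500 genes at 10 reads, and thinning to 256773 reads used 1 fixed seed. A gene entered the comparison across all genes with 10 reads in at least 5 thinned cells. A share of 0 was set to 3 cells for a fold, and a fold was left out where the other share was at or under that floor. Python 3.11.15, numpy 2.4.6, scipy 1.17.1 and pandas 2.3.3 were used, with the Ensembl 115 annotation, and the functions were tested on simulated data. The members and lists were chosen with earlier results of these data known. Named genes were the members, genes of the lists found in at least 5% of a class and the 3 genes most like each member. The labels give 1 group, so no test was run. Alternatives varied the detection limit, depth, scaling, marker split, cell filter, table, plates and seed. Promoter and protein sequences were not analysed here.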

Additional observations from a re-analysis of the deposited data

Results flagged for a closer look

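The 28 cells with too few genes were used in no comparison. Their reads ran from 101627 to 2294572. N had 10 or more reads in 5 of them (17.9%, 6.06 to 36.9), above the 10.7% (3 cells) that a count of 0 in 28 cells allows. That interval includes this limit and the exact one of 12.3%, and the share in the cells kept was 20.3%. None of the 28 had 10 reads of esg, 7 had Mhc, 6 Ppn and 13 apolpp. A median of 90.04% of their reads fell on ribosomal RNA.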

How the results depend on the processing

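The main differences were recomputed under the alternative settings, and of those on the same scale 9 moved outside the counting interval of the reported value, none turned and the rest stayed within it. The differences, in percentage points, were 68.1 (esg, any E(spl) member), 9.01 (esg, Dl), 45.4 (esg, N), -12.7 (Mhc, any E(spl) member), 22.2 (Ppn, any E(spl) member) and -35.4 (apolpp, any E(spl) member). With 50 reads for detection they moved to 74.8 (esg, any E(spl)), 32.5 (esg, N), 5.33 (Ppn) and -24.7 (apolpp). Only cells with exactly 1 marker gave 75.1 (esg, any E(spl)) and -44.8 (apolpp), and a marker limit of 100 reads gave 75.2 (esg, any E(spl)). On the other scale, which cannot be set against those intervals, the ratio of mean CPM was 23.2 (esg, any E(spl)), 10.9 (esg, Dl), 6.81 (esg, N), 0.519 (Mhc) and 0.0433 (apolpp), each in the direction of the shares. For Ppn it was 0.443, the opposite direction. Without esg-positive cells, chosen after seeing the data, the differences were 33.4 (Ppn), -25.6 (apolpp) and -7.39 (Mhc).

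Leaving out each plate in turn gave 66.4 to 69.7 (esg, any E(spl)), 6.601 to 10.6 (esg, Dl), 42.8 to 47.8 (esg, N), -13.8 to -11.1 (Mhc), 20.96 to 23.99 (Ppn) and -36.3 to -34.3 (apolpp). No paired analysis was possible because the labels give 1 group. The causes of these changes were not tested, and cells of 1 pooled sort show no spread between animals. Dl, Su(H) and E(spl)m7-HLH rest on 27, 28 and 6 cells.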

Other observations

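Cells with none of the 4 markers held a further set of E(spl)-positive cells, in a split chosen after seeing the data. An E(spl) member was detected in 22 of these cells (18.8%), unthinned, 12 of them with E(spl)mbeta-HLH alone. The GATA factor srp was detected in 15 of the 22 and 35 of the 95 others, the zinc-finger gene klu in 6 and 2, and N in 9 and 14. Gut genes went the other way, with GATAe in 2 of the 22 and 36 of the 95, fkh in 3 and 38, Ptx1 in 0 and 26 and cad, a caudal homeobox gene, in 1 and 25. Thinned, klu was in 30% and 0% and GATAe in 10% and 35.4% of cells. Median depth was 481084 reads in the 22 and 643052 in the 95. The hemocyte genes NimC1 and Hml were at 0 in both sets, as was Ppn, which the split itself fixed. The summed hemocyte level had a median of 471.9 CPM in the 22 and 51.3 CPM in the 95. Over the contractile list, 4 of 12 genes were in at least 25% of the 22 cells, against 1 of 12 for the 95. The summed contractile level had medians of 353.3 and 179.4 CPM and reached 1380 and 95382 CPM. The part of depth in these differences was not tested.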
